A study of Homo sapiens with 12 samples.

Results

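Tissue factor and the protease-activated receptors (PARs) join blood clotting to cell signaling, and 8 genes of this system were followed here out of 19907 gene symbols in the files. They were taken by symbol, all 8 were present in all 12 libraries, and all 8 passed the filter on low counts. The genes fall into 4 that act around tissue factor (F3, TFPI, TFPI2 and THBD) and 4 receptors (F2R, F2RL1, F2RL2 and F2RL3). The family was proposed with differences between these groups already known, so the fold changes and adjusted p-values below describe the genes and are no independent support for any direction.

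The cells were MDA-MB-231, an established human triple-negative breast cancer line. In S134A-GR cells, clone #1, both alleles of the glucocorticoid receptor gene NR3C1 carried a CRISPR knock-in that put alanine in place of the serine its name refers to, and WT-GR cells were a non-targeted clone recovered from the same procedure. After 18 h of starvation in IMEM with 1% charcoal-stripped serum (DCC), cells of both lines were given either vehicle (Veh) or TGFβ1 at 10 ng/mL and harvested at 6 h, in 4 groups of 3 replicates. Each line was 1 clone, so genotype and clone cannot be told apart in any comparison of the lines. The labels do not say whether replicates were separate cultures, and the p-values measure the spread between these libraries, which may be technical. In bulk RNA, fewer expressing cells and less RNA per cell cannot be told apart.

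Tissue factor, encoded by F3, is the membrane receptor for clotting factor VIIa and starts the extrinsic clotting pathway. TFPI shuts that complex off, TFPI2 is a related inhibitor of serine proteases in the matrix, and thrombomodulin (THBD) captures thrombin and turns it toward activation of protein C. PARs are G protein-coupled receptors that a protease switches on by cutting the extracellular end, which exposes a tethered ligand. Thrombin cuts PAR1 (F2R), PAR3 (F2RL2) and PAR4 (F2RL3), whereas PAR2 (F2RL1) is cut by trypsin-like proteases and by the complex of tissue factor with factor VIIa. MDA-MB-231 cells are known for abundant tissue factor and for PAR1 and PAR2 signaling.

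Library totals ranged from 56.4 to 129.8 in units of 1e6 recovered reads, and libraries of a group correlated at r from 0.985 to 0.991. The line was checked against its markers. VIM, CD44, EGFR and NR3C1 were all detected, while of the epithelial and hormone receptor genes ESR1 averaged 3.26 and CDH1 averaged 6.17 normalized counts. EPCAM, which had been listed as absent, ranged from 318 to 1093 normalized counts and was lower in S134A-GR cells. The substitution in GR leaves the NR3C1 transcript in place, so its level is no check of genotype. NR3C1 averaged 11771 ± 1186 in WT-GR and 8815 ± 259 in S134A-GR cells under Veh (mean ± SD, n = 3). Its RNA was thus lower in S134A-GR cells under Veh (log2 fold change -0.41, limma adjusted p = 0.00012). Under TGFβ1 it was also lower (-0.31, adjusted p = 0.00134).

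The genes lie at 6 loci of hg38 (GENCODE v44 positions). F3 spans chr1:94529173-94541759 on the minus strand, TFPI chr2:187464230-187565760 on the minus strand, TFPI2 chr7:93885396-93890753 on the minus strand and THBD chr20:23045633-23049672 on the minus strand. THBD has a single exon in its canonical transcript. Each receptor gene has 2 exons. F2RL2 (chr5:76615482-76623413, minus strand), F2R (chr5:76716126-76735770, plus strand) and F2RL1 (chr5:76818933-76835315, plus strand) sit together on chromosome 5, and F2RL3 stands alone at chr19:16888999-16892606 on the plus strand. F2RL2 lies within IQGAP2 on the opposite strand, whose mean was 12.96 normalized counts. TFPI, TFPI2, F2R and F2RL1 each overlap a gene on the opposite strand that was not analysed here. The strand setting of the counting is not given in the sources used here, so reads of overlapping genes could not be separated.

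Sequence before the start of 3 genes is shown, F3 because it was the most abundant of the 8 per kb, F2RL1 because its level separated the lines most clearly among abundant genes, and F2RL3 because it fell most under TGFβ1. The sequences are RefSeq's on GRCh38.p14, written along the gene's own strand, with matches to the searched motifs in capitals. For F3 and F2RL3 they are the 250 bases before the start. RefSeq starts F2RL1 97 bases inside the GENCODE span given above, so only the 153 bases of its window that precede that span are printed. F3 is chr1:94541760-94542009 (minus strand), F2RL1 is chr5:76818780-76818932 (plus strand) and F2RL3 is chr19:16888749-16888998 (plus strand).
F3: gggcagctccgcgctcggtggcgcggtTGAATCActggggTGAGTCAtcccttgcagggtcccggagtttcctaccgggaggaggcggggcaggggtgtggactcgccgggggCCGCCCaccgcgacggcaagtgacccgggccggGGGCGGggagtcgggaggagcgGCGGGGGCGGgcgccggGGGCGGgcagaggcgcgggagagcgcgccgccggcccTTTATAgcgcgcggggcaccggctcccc
F2RL1: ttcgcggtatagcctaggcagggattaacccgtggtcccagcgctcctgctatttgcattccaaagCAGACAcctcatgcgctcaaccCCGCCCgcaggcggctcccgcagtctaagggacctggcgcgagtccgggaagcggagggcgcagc
F2RL3: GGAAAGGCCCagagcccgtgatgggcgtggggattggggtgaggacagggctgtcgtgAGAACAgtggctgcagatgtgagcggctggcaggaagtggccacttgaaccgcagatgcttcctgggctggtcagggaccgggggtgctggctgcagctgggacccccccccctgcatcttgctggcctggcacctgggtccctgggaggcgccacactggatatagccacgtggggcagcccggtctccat

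Of the 8 genes, 6 had an entry in the promoter table, all but THBD and F2R. Motifs were searched on both strands of the 250 bases before the RefSeq start, from which positions are counted, and of 34788 distinct windows of the same length. The AP-1 motif TGANTCA stood in 6.59% of all windows and was found in F3, at -223 and -210 from the gene start, in TFPI2 at -87 and in F2RL2 at -37. The GC box GGGCGG, present in 42.6% of all windows, occurred 4 times in F3 and 2 times each in TFPI2 and F2RL1. The EGR1 motif GCGGGGGCG, in 4.72% of windows and overlapping a GC box in both, was found in F3 at -82 and TFPI2 at -118. F3 also held TATAAA (10.8% of windows) at -28, on the reverse strand. F2RL1 held the short SMAD motif CAGACA (13.6%) at -184, and F2RL3 held the short glucocorticoid receptor motif AGAACA (12.4%) at -192 and an NF-κB motif (1.73%) at -250. The SMAD palindrome GTCTAGAC, in 0.178% of windows, was found in none of the 6. A match is a run of letters and not a shown binding site. For TFPI the RefSeq start lies 11325 bases inside the GENCODE span, so its whole window is within the gene as given above, and it held none of these motifs. For F2RL2 the starts differ by 10 bases.

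Levels of different genes were compared as normalized counts per kb of canonical transcript. In WT-GR cells under Veh, F3 was the highest at 9198 ± 537 per kb, followed by F2RL1 at 7737 and TFPI at 3370 per kb. TFPI2 (1496 per kb) and F2R (1107 per kb) came next, and F2RL3 (728), THBD (603) and F2RL2 (70.4 per kb) were the lowest. Tissue factor RNA therefore exceeded that of its inhibitor TFPI 2.73 ± 0.170-fold per kb of canonical transcript in WT-GR cells under Veh. That ratio depends on the lengths used, and its SD covers only the spread between libraries. The canonical transcript of TFPI has 3859 bases and all its exons 11714, against 2298 and 2886 for F3. Which transcripts of each gene were present was not tested. The thinnest of the 8 was F2RL2, with 140 to 356 recovered reads per library, while F3 had 12174 to 37598.

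**Figure D1:**
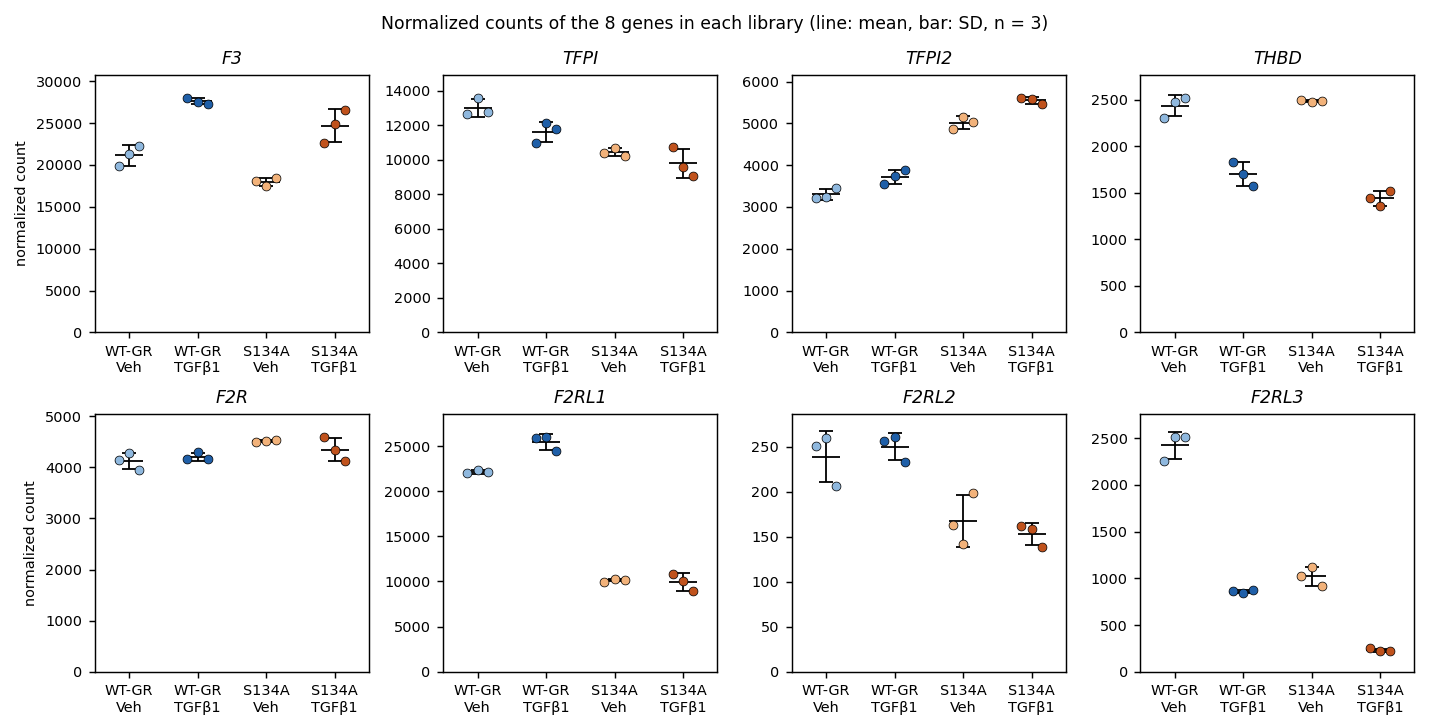
Normalized counts of the 8 genes (y axis, from 0) in the 12 libraries, grouped by line and treatment (x axis). Points are libraries, the horizontal line is the group mean and the bar its SD. F2RL1 is at 21987 or more in all WT-GR libraries and at 10811 or less in all S134A-GR libraries, and F2RL3 is lowest in the 3 S134A-GR libraries with TGFβ1.

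The first comparison asked how the system differed between the lines before any TGFβ1. Under Veh, S134A-GR cells had less RNA for the receptors PAR2 and PAR4, somewhat less F3, TFPI and F2RL2, more TFPI2 and slightly more F2R. THBD did not differ detectably. In limma's fit over all genes 2 of the 8 were higher, 5 were lower and 1 was not called at an adjusted p under 0.05. Between these clones 51.5% of all 18579 genes tested were called, 25.0% higher and 26.5% lower, and the count among the 8 is not read against that share because these values were in view when the genes were chosen. With a fold change of at least 1 on the log2 scale also required, 2 of the 8 were called (9.51% of all genes), and with at least 1.5 none was (5.47% of all genes). The median log2 fold change was -0.27 for the 8 genes and 0.02 for all genes.

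F3 measured 19836, 21281 and 22293 normalized counts in WT-GR cells under Veh and 18026, 17437 and 18445 in S134A-GR cells. All 3 S134A-GR libraries were below all 3 WT-GR libraries. The log2 fold change was -0.23 (SE 0.0532, adjusted p = 0.00203), a level 15.0% lower. TFPI, the main inhibitor of the tissue factor complex, averaged 13005 ± 511 in WT-GR and 10449 ± 243 in S134A-GR cells, without overlap, a log2 fold change of -0.32 (SE 0.0559, adjusted p = 0.000275). The ratio of F3 to TFPI per kb was 2.73 ± 0.170 in WT-GR and 2.89 ± 0.148 in S134A-GR cells under Veh, and these ranges overlapped.

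TFPI2, the matrix-bound relative of TFPI, went the other way. It measured 3203, 3244 and 3456 normalized counts in WT-GR cells and 4856, 5159 and 5024 in S134A-GR cells under Veh. Every S134A-GR library was above every WT-GR library, and the level was 51.9% higher (log2 fold change 0.60, SE 0.0441, adjusted p = 6.6e-08). THBD averaged 2436 ± 113 and 2487 ± 11.6, and its groups overlapped. Its log2 fold change of 0.03 had a 95% interval from -0.10 to 0.16 (adjusted p = 0.705), and it became -0.008 without WT-GR Veh replicate 1.

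Among the receptors, F2RL1 showed the clearest separation by line. Its 3 WT-GR libraries under Veh measured 21987, 22333 and 22086 normalized counts, and its 3 S134A-GR libraries measured 9988, 10281 and 10182. The S134A-GR level was 2.18-fold lower, with a gap between the groups many times the spread within them (log2 fold change -1.12, SE 0.0544, adjusted p = 1.15e-09). F2RL3, which encodes the low-affinity thrombin receptor PAR4, measured 2257, 2510 and 2511 in WT-GR cells against 1026, 1120 and 920 in S134A-GR cells. It was 2.37-fold lower (log2 fold change -1.25, SE 0.0829, adjusted p = 2.52e-08).

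F2RL2, the gene of PAR3, measured 251, 260 and 206 normalized counts in WT-GR and 163, 142 and 199 in S134A-GR cells under Veh. The groups came close without overlapping, and the log2 fold change was -0.51 with a wider SE of 0.143 (adjusted p = 0.0076). F2R, the gene of the main thrombin receptor PAR1, averaged 4127 ± 163 and 4514 ± 17.2, 9.38% higher in S134A-GR cells (log2 fold change 0.13, SE 0.0439, adjusted p = 0.0230). This small difference of F2R was no longer called without WT-GR Veh replicate 3 (log2 fold change 0.10, adjusted p = 0.0865) or without S134A-GR Veh replicate 1, 2 or 3 (adjusted p = 0.0530, 0.0524 and 0.0611).

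**Figure D2:**
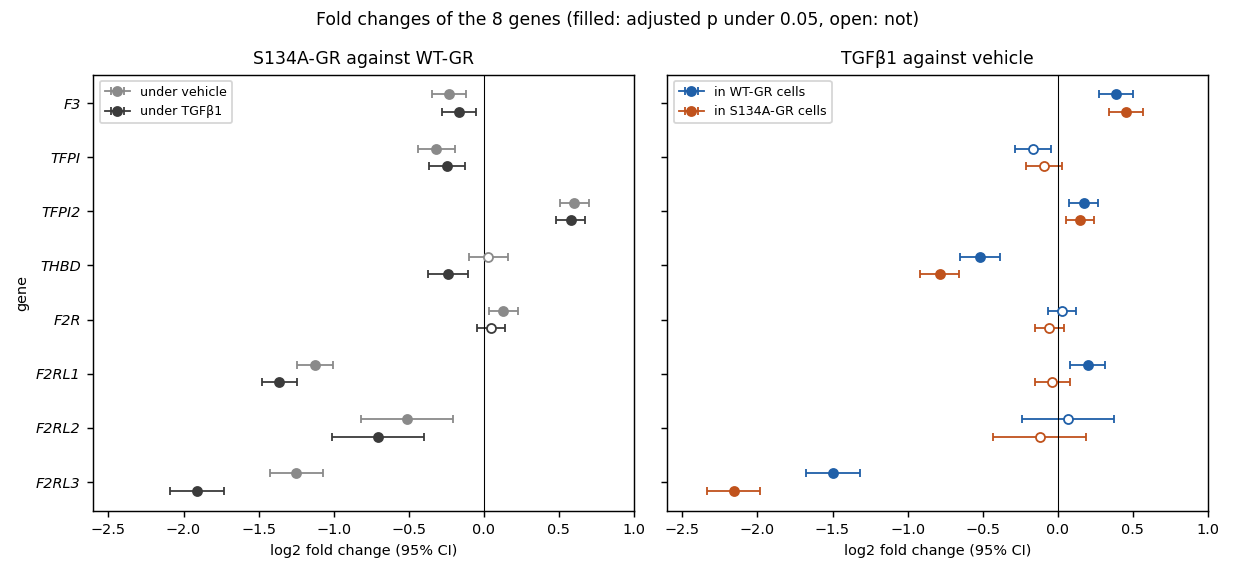
Log2 fold changes (x axis) of the 8 genes (y axis) with 95% confidence intervals from limma, S134A-GR against WT-GR on the left and TGFβ1 against Veh on the right. Filled points had an adjusted p under 0.05. F2RL1 and F2RL3 lie farthest left between the lines, and F2RL3 farthest left under TGFβ1.

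With TGFβ1 present, F2RL1, F2RL2 and F2RL3 were again lower and TFPI2 again higher in S134A-GR cells. One gene was higher in S134A-GR cells, 6 were lower and 1 was not called, where 48.8% of all genes were called (23.1% of all genes higher and 25.7% lower). With 1 on the log2 scale as the least size, the count was 2 (8.46% of all genes) and at 1.5 it was 1 (5.04%). The comparisons of the lines under Veh and under TGFβ1 share no library. They compare the same clones with 1 spread estimated over all 12 libraries, so their p-values are not independent. F2RL1 averaged 25438 ± 893 in WT-GR and 9924 ± 967 in S134A-GR cells under TGFβ1, a 2.56-fold lower level (log2 fold change -1.36, adjusted p = 2.12e-10). F2RL3 averaged 857 ± 15.5 against 228 ± 19.3, a 3.76-fold lower level (log2 fold change -1.91, adjusted p = 4.51e-10). F2RL2 had a log2 fold change of -0.71 (adjusted p = 0.000887), and TFPI2, the one gene that was higher, of 0.58 (adjusted p = 1.05e-07).

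THBD, level between the lines under Veh, was lower in S134A-GR cells under TGFβ1, at 1442 ± 79.7 against 1703 ± 129 normalized counts (log2 fold change -0.24, adjusted p = 0.00472). TFPI was lower by -0.25 on the log2 scale (adjusted p = 0.0021). F3 was lower by -0.16 on the log2 scale (adjusted p = 0.0200). That call for F3 was lost without WT-GR TGFβ1 replicate 1 (log2 fold change -0.15, adjusted p = 0.0624) and without S134A-GR TGFβ1 replicate 1 (-0.10, adjusted p = 0.0957). F2R averaged 4209 ± 80.2 and 4349 ± 234, its groups overlapped, and the 95% interval of its log2 fold change ran from -0.05 to 0.14 (adjusted p = 0.423).

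The next comparisons asked what 6 h of TGFβ1 did in each line. In WT-GR cells F3, TFPI2 and F2RL1 rose, THBD and F2RL3 fell, and TFPI, F2R and F2RL2 did not pass the test. In S134A-GR cells F3 and TFPI2 rose, THBD and F2RL3 fell, and the remaining 4 did not pass. In WT-GR cells 21.0% of all genes were called (11.2% higher, 9.82% lower), and in S134A-GR cells 18.7% (10.0% higher, 8.69% lower). Only F2RL3 reached 1 on the log2 scale in either line (2.29% of all genes in WT-GR and 1.66% in S134A-GR cells), and at 1.5 (1.24% and 0.834%) it was called in S134A-GR cells alone, with -1.498 in WT-GR cells just short of that size.

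F3 rose in both lines. In WT-GR cells it went from 19836, 21281 and 22293 normalized counts under Veh to 27993, 27533 and 27252 under TGFβ1, an increase of 30.5% (log2 fold change 0.39, adjusted p = 0.000115). In S134A-GR cells it went from 18026, 17437 and 18445 to 22630, 24908 and 26509, an increase of 37.4% (log2 fold change 0.46, adjusted p = 2.86e-05). The treated and untreated libraries did not overlap in either line. Across the 4 groups the order for F3 was WT-GR with TGFβ1, S134A-GR with TGFβ1, WT-GR with Veh and S134A-GR with Veh, with no overlap between neighbours in that order.

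THBD moved opposite to F3. It measured 2307, 2480 and 2521 normalized counts under Veh and 1829, 1708 and 1571 under TGFβ1 in WT-GR cells, a fall of 30.1% (log2 fold change -0.52, adjusted p = 2.38e-05). In S134A-GR cells it measured 2495, 2473 and 2492 under Veh and 1441, 1363 and 1522 under TGFβ1 (log2 fold change -0.79, adjusted p = 4.75e-07). Both lines therefore showed a full separation of treated from untreated libraries. The ratio of F3 to THBD per kb was 15.2 ± 0.260 under Veh and 28.6 ± 1.80 under TGFβ1 in WT-GR cells, and it was 12.7 ± 0.310 and 30.1 ± 2.30 in S134A-GR cells.

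The inhibitors changed little with TGFβ1. TFPI averaged 11621 ± 594 after TGFβ1 in WT-GR cells, below the Veh libraries without overlap, but the log2 fold change of -0.16 was not called (adjusted p = 0.0534). It was called under DESeq2's Wald test (adjusted p = 0.0354), with the genes of edgeR's filterByExpr (0.0496), with only the groups compared (0.0423), and without S134A-GR TGFβ1 replicate 1 (0.0166) or 3 (0.0330). In S134A-GR cells TFPI gave 9809 ± 844 against 10449 ± 243, with overlap (log2 fold change -0.09, adjusted p = 0.290), and it was called only without S134A-GR TGFβ1 replicate 1 (log2 fold change -0.16, adjusted p = 0.0405). TFPI2 rose by 12.7% in WT-GR cells (log2 fold change 0.17, adjusted p = 0.0124) and by 10.8% in S134A-GR cells (0.15, adjusted p = 0.0309). The call for TFPI2 was lost in WT-GR cells without WT-GR Veh replicate 2 (adjusted p = 0.0537) or WT-GR TGFβ1 replicate 3 (0.0625). It was lost in S134A-GR cells without S134A-GR Veh replicate 1 (0.129) or 3 (0.0788) or S134A-GR TGFβ1 replicate 1 (0.0801) or 2 (0.0819), while the log2 fold change stayed between 0.13 and 0.16 in these 6 fits. The 4 groups of TFPI2 did not overlap, with S134A-GR cells under TGFβ1 the highest at 5553 ± 82.2 and WT-GR cells under Veh the lowest at 3301 ± 136.

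F2RL3 showed the largest response of the 8. In WT-GR cells it fell from 2257, 2510 and 2511 normalized counts under Veh to 862, 840 and 870 under TGFβ1, which was 2.83-fold lower (log2 fold change -1.50, adjusted p = 1.23e-08). In S134A-GR cells it fell from 1026, 1120 and 920 to 250, 217 and 217, which was 4.49-fold lower (log2 fold change -2.16, adjusted p = 3.66e-10). The 4 groups were ordered WT-GR with Veh, S134A-GR with Veh, WT-GR with TGFβ1 and S134A-GR with TGFβ1, and no neighbours overlapped.

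F2RL1 rose in WT-GR cells from 21987, 22333 and 22086 to 25929, 25979 and 24407 normalized counts under TGFβ1 (log2 fold change 0.20, adjusted p = 0.0173). That call was lost without WT-GR TGFβ1 replicate 1 (log2 fold change 0.19, adjusted p = 0.0673) or 2 (0.18, adjusted p = 0.0636). In S134A-GR cells it measured 10811, 10069 and 8892 under TGFβ1, around the Veh values and with overlap (log2 fold change -0.04, adjusted p = 0.719). F2R stayed within 3956 to 4589 normalized counts over all 12 libraries, with log2 fold changes under TGFβ1 of 0.03 in WT-GR cells (adjusted p = 0.710) and -0.06 in S134A-GR cells (0.453). F2RL2 gave 0.07 (adjusted p = 0.791) and -0.12 (0.638).

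The last comparison asked whether the TGFβ1 response differed between the lines. It subtracts the log2 response of WT-GR cells from that of S134A-GR cells, and 1 of the 8 genes was called, F2RL3, where 0.414% of all genes (77) were called, 0.167% higher and 0.248% lower. Its size was under 1 on the log2 scale, which 0.0592% of all genes reached, as 0.0377% reached 1.5. For F2RL3 the difference was -0.66 (SE 0.117, 95% interval -0.91 to -0.41, adjusted p = 0.0259), so the fall was steeper in S134A-GR cells. The size held in every alternative run, from -0.73 to -0.59, but the call did not. It was lost with limma-voom (adjusted p = 0.0525), with a replicate block (0.0528) and without any 1 of 9 libraries, where the difference ran from -0.69 to -0.59 and the adjusted p from 0.0623 to 0.0863. It was kept without WT-GR Veh replicate 3 (adjusted p = 0.0292), S134A-GR Veh replicate 3 (0.0224) or S134A-GR TGFβ1 replicate 1 (0.0156). The difference was -0.27 for THBD (adjusted p = 0.328) and -0.24 for F2RL1 (0.340). For F3, TFPI, TFPI2, F2R and F2RL2 it lay between -0.19 and 0.07 (adjusted p from 0.709 to 0.926).

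The make-up of the receptor pool per kb changed with both line and treatment. In WT-GR cells under Veh F2RL1 supplied 80.2% ± 0.398 of the RNA of the 4 receptors, F2R 11.5%, F2RL3 7.54% and F2RL2 0.729%. In S134A-GR cells under Veh the share of F2RL1 was 69.4% ± 0.289 and that of F2R 23.7% ± 0.291. The summed level of the 4 receptors was 9642 ± 125 per kb in WT-GR and 5115 ± 63.4 per kb in S134A-GR cells under Veh. Under TGFβ1 the share of F2RL3 was 2.49% ± 0.117 in WT-GR and 1.44% ± 0.0768 in S134A-GR cells, and the sums were 10352 ± 324 and 4749 ± 408 per kb. F2RL1 remained the most abundant receptor RNA in every library. Shares of one pool move against each other, so the larger share of F2R in S134A-GR cells stands beside a level of F2R that was 9.38% higher.

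**Figure D3:**
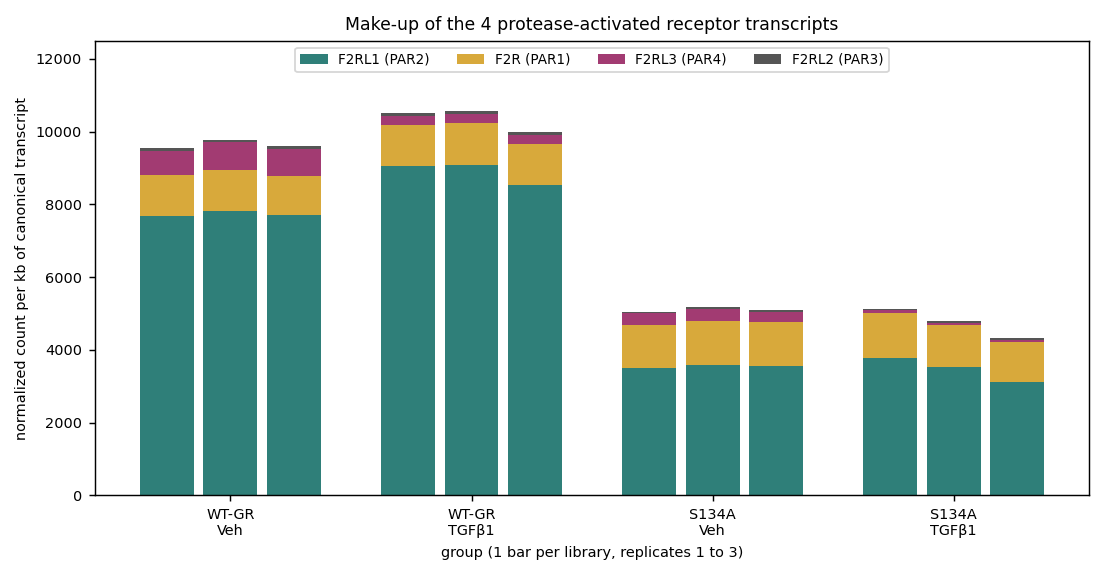
Normalized counts per kb of canonical transcript (y axis) of the 4 receptor genes, stacked, with 1 bar per library and libraries grouped by line and treatment (x axis). The bars of WT-GR cells reach 9548 to 10563 and those of S134A-GR cells 4320 to 5181, and the difference lies mostly in F2RL1.

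The levels of genes around each of the 8 were also compared between the lines under Veh, since the lines are clones. Of all genes tested, 26.5% were called lower and 25.0% higher in S134A-GR cells in that comparison. The 5 tested genes on either side of F3 had a median log2 fold change of -0.54, 9 of these 10 were called lower, and all 10 were below 0 (-1.03 to -0.19). F3 at -0.23 was thus less reduced than most of its neighbours, of which the nearest were ABCD3 at -0.55 and SLC44A3 at -1.03. Around TFPI the median was -0.48 with 7 lower and 1 higher. Its nearest were CALCRL at -1.18 (mean of only 18.4 normalized counts over the 12 libraries) and GULP1 at -0.66. Around TFPI2 it was -0.23 with 7 called lower, while TFPI2 itself was at 0.60 and its nearest, CALCR at -0.03 and GNG11 at 0.11, were not called. Around THBD it was -0.21 with 5 lower, and the nearest were FOXA2 at -0.59 and NXT1 at -0.04 (not called).

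Around F2RL3 the median was -0.25 with 7 called lower, against 26.5% of all genes. Its nearest were SIN3B at -0.33 and CPAMD8 at -1.14, against -1.25 for F2RL3. CPAMD8 was a low gene, at a mean of 27.8 normalized counts over the 12 libraries. The chromosome 5 receptors are among each other's neighbours. Next to F2RL1 stood F2R at 0.13 and S100Z at 0.13 (not called, mean 31.3 normalized counts over the 12 libraries). The median around F2RL1 was -0.09 with 3 of 10 lower, near the 26.5% of all genes called lower. F2RL1 and F2R, adjacent among tested genes on the same strand, thus had fold changes of opposite sign between the lines under Veh. That of F2R was small, and its call was lost with some single libraries left out. Under TGFβ1 F2R was not called between the lines (log2 fold change 0.05, limma adjusted p = 0.423). The nearest gene to F2RL2 on the other side was IQGAP2 at -0.55 (not called, adjusted p = 0.493). Copy number was not measured, and its part in any difference between the lines was not tested.

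**Figure D4:**
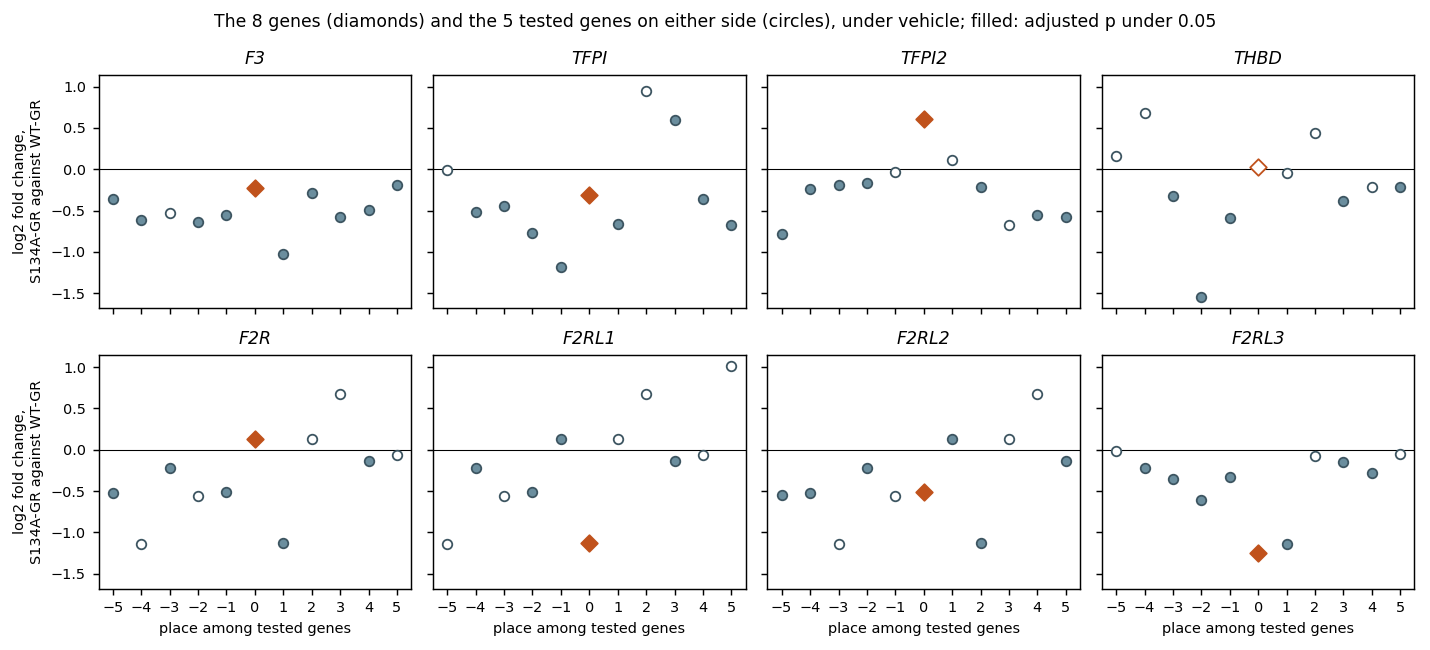
Log2 fold change between the lines under Veh, positive where S134A-GR cells were higher (y axis), for each of the 8 genes (diamond, place 0) and the 5 tested genes on either side in genome order (circles, x axis), with filled symbols for an adjusted p under 0.05. All 10 neighbours of F3 lie below 0, and TFPI2 stands above its 10 neighbours.

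Genes that work with the 8 were described from lists, which were also chosen with earlier results known. Of 13 tested proteases known to cut PARs, 9 were lower in S134A-GR cells under Veh and 4 did not pass, where 26.5% of all genes were called lower. The median log2 fold change was -1.71 against 0.02 for all genes, but -0.87 once genes at the detection floor were set to 0 or to the floor. Of the 9, HPN (mean over the 12 libraries 1.18), GZMA (9.59) and MMP13 (14.1 normalized counts) were close to that floor. PRSS2, a trypsinogen whose near-identical copies make its count uncertain, averaged 541 ± 66.5 in WT-GR and 58.7 ± 7.65 in S134A-GR cells (log2 fold change -3.19, adjusted p = 4.84e-08). CTSS, the lysosomal protease cathepsin S, went from 963 ± 33.5 to 238 ± 5.77 (-2.01, adjusted p = 2.23e-09), and MMP1, an interstitial collagenase that can cut PAR1, from 636 ± 29.9 to 195 ± 28.5 (-1.71, adjusted p = 1.9e-08). Under TGFβ1 8 of the 13 were lower (25.7% of all genes). TGFβ1 itself lowered PRSS2 in both lines (-0.86, adjusted p = 0.0141 in WT-GR, -1.27, adjusted p = 0.00112 in S134A-GR), and it raised PRSS8, the membrane protease prostasin, in both, from 29.8 ± 5.76 to 75.6 ± 14.0 normalized counts in WT-GR (1.31, adjusted p = 0.00946) and from 26.3 ± 12.2 to 57.9 ± 7.58 in S134A-GR cells (1.217, adjusted p = 0.0166). Of the 13, 1 rose, 2 fell and 10 were not called in WT-GR cells (11.2% of all genes higher, 9.82% lower). In S134A-GR cells 1 rose, 1 fell and 11 were not called (10.0% of all genes higher, 8.69% lower).

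Under Veh, S134A-GR cells had lower levels of 11 and higher levels of 3 of the 18 tested G proteins, effectors, kinases and arrestins that act behind PARs (26.5% of all genes were called lower and 25.0% higher), with a median of -0.32. The phospholipases PLCB2 (1225 ± 91.0 against 89.3 ± 4.32, log2 fold change -3.76) and PLCB1 (-1.70) and the β-arrestin gene ARRB1 (-1.53) were the furthest below WT-GR cells. GRK5, a kinase that phosphorylates activated receptors, was higher, from 2983 ± 173 to 5813 ± 185 (0.96, adjusted p = 6.95e-09). TGFβ1 lowered GRK5 by -0.28 in WT-GR and -0.87 in S134A-GR cells on the log2 scale, and the difference of -0.59 was called (adjusted p = 0.00717). It was the only 1 of the list genes called for a difference in response. TGFβ1 raised GNA12, which couples receptors to RhoA, in WT-GR (0.38, adjusted p = 4.16e-06) and S134A-GR cells (0.32, adjusted p = 3.3e-05), and also PLCB3 (0.34 and 0.27). Of the 18, 3 rose and 4 fell in WT-GR cells (11.2% and 9.82% of all genes) and 2 rose and 5 fell in S134A-GR cells (10.0% and 8.69%).

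The next list held 12 tested genes of procoagulant factors and of their processing and transport. In S134A-GR cells under Veh 2 were higher, 4 lower and 6 not called (25.0% of all genes higher, 26.5% lower), with a median of -0.07. The 4 lower were F13A1, the carboxylase gene GGCX and the transport genes LMAN1 and MCFD2. The 2 higher were F12 and KLKB1. KLKB1 was near the detection floor, at a mean of 4.67 normalized counts over the 12 libraries. F13A1, the clot-crosslinking factor XIII subunit, averaged 844 ± 45.7 in WT-GR and 138 ± 21.9 in S134A-GR cells (log2 fold change -2.62, adjusted p = 1.14e-09), and F12 was higher (0.45, adjusted p = 0.000951). TGFβ1 lowered VWF, von Willebrand factor, in both lines, from 396 ± 30.2 to 219 ± 5.68 in WT-GR (-0.85, adjusted p = 5.12e-05) and from 364 ± 13.3 to 181 ± 22.0 in S134A-GR cells (-1.01, adjusted p = 1.18e-05). Of the 12, VWF alone was called in WT-GR cells and 11 were not, where 9.82% of all genes were called lower. In S134A-GR cells VWF and F13A1 (-0.63) were lower and 10 were not called (8.69% of all genes lower). Factor VII itself, the partner of tissue factor, was near the detection floor at a mean of 4.47 normalized counts over the 12 libraries.

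Of 9 tested anticoagulants and serpins, 4 were higher, 2 lower and 3 not called in S134A-GR cells under Veh, against 25.0% and 26.5% of all genes. PROCR, the endothelial protein C receptor that works beside thrombomodulin, was higher (9318 ± 662 against 13105 ± 159, log2 fold change 0.49, adjusted p = 5.7e-07), while SERPINA5, an inhibitor of activated protein C, was lower (1083 ± 121 against 330 ± 53.5, -1.72, adjusted p = 9.15e-08). TGFβ1 raised PROCR in WT-GR (0.29, adjusted p = 0.000335) and S134A-GR cells (0.19, adjusted p = 0.00976), in contrast to the fall of THBD. ANXA5, which covers exposed phosphatidylserine, rose by 0.19 in each line (adjusted p = 0.00312 and 0.00333). PROCR, SERPINE2 (0.22) and ANXA5 rose in WT-GR cells, and the remaining 6 of the list did not pass. Of all genes 11.2% were called higher and 9.82% lower there. In S134A-GR cells 2 rose, 1 fell and 6 were not called (10.0% of all genes higher, 8.69% lower). The gene that fell was PROZ (-1.25, adjusted p = 0.0219), with a mean of only 10.7 normalized counts over the 12 libraries.

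A further list held 9 genes of tissue factor partners and of membrane lipid scrambling. In S134A-GR cells under Veh 3 of them were at a higher and 5 at a lower level, against 25.0% and 26.5% of all genes. ITGB1, the β1 integrin that binds tissue factor, was higher (0.21, adjusted p = 0.000636), as were FLNA (0.21) and XKR8 (0.18). PLSCR1 (-0.45, adjusted p = 4.24e-06) and the integrin gene ITGA3 (-0.32, adjusted p = 3.3e-06) were lower. ANO6, the scramblase that exposes procoagulant lipid, was also lower (-0.32, adjusted p = 0.000102). TGFβ1 raised ANO6 and ITGB1 in both lines, ANO6 by 0.38 and 0.41 and ITGB1 by 0.28 and 0.34 on the log2 scale in WT-GR and S134A-GR cells. It lowered XKR8 in S134A-GR cells (-0.33, adjusted p = 0.00103).

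Markers of other cells that carry tissue factor pathway genes were also read. The summed level of 4 endothelial genes (of 5 listed) was 1589 to 1713 normalized counts in WT-GR and 1214 to 1301 in S134A-GR cells under Veh, and 1380 to 1382 and 880 to 1049 under TGFβ1, all 4 with at least 3 reads in every library. Most of that sum was PECAM1, and CDH5 was lower in S134A-GR cells under Veh (187 against 19.0 normalized counts, log2 fold change -3.28, adjusted p = 2.26e-07). In the same comparison PECAM1 was lower (-0.25, adjusted p = 0.0104), and KDR (0.15) and TEK (0.09) were not called. Summed platelet genes (2 of 4 listed) lay between 18.1 and 51.1 and leukocyte genes (3 of 4 listed) between 16.5 and 48.4 normalized counts, and PF4 and PTPRC were at 0 in at least 1 library. Under Veh PF4 (17.7 in WT-GR, 3.81 in S134A-GR cells, adjusted p = 0.0069) and CD14 (30.4 and 4.62, adjusted p = 0.000245) were lower in S134A-GR cells, near the detection floor. ITGA2B (log2 fold change 0.76), PTPRC (1.23) and CD79A (0.76) were not called. With TGFβ1 the 4 endothelial genes did not move together. PECAM1 fell in WT-GR (log2 fold change -0.37, adjusted p = 0.0023) and S134A-GR cells (-0.45, adjusted p = 0.000509), TEK rose in both (15.3 to 50.8 normalized counts, 1.70, adjusted p = 0.00144, and 16.2 to 52.6, 1.66, adjusted p = 0.00194), and CDH5 (0.20 and 0.60) and KDR (-0.24 and -0.18) were not called. Their part in the values of the 8 genes was not tested.

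Across the 12 libraries, the genes whose profile most resembled each of the 8 were found among 12468 genes, as a description. All points share the 4 groups, so genes that separate them correlate highly. F2RL1 was most like RTN4 (r = 0.996), APLP2 and PDIA6, and TFPI2 most like MLLT11 (r = 0.995), CREM and APTX. F2RL3 was most like LZTS1 (r = 0.995), CDKN2C and SOCS3, and THBD most like ID3 (r = 0.980), RIN1 and ZNF703. F3 was most like CMSS1 (r = 0.980), VMP1 and ARIH2, TFPI most like NMI (r = 0.976), ANO10 and LANCL1, and F2RL2 most like ANOS1 (r = 0.969), OSBP and EIF2AK3. F2R had the weakest match, GALC at r = 0.935, followed by PRMT9 and TOX4.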

How the data were processed

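RNA-seq libraries of 2 lines under 2 treatments, 3 replicates each, were used as deposited. As deposited, the values are a signal: normalized counts, 1 per gene symbol and library. To make them the authors trimmed reads with Trimmomatic, aligned with HISAT2 (hg38), counted with featureCounts and scaled by DESeq2 1.22.2 size factors, and ran FastQC 0.11.7. The annotation, the strand setting and the versions of aligner and counter are not given in the sources used here. Within 1e-06 reads, all values were whole multiples of their library's step, which gave back reads and totals. A count of 3 reads, taken as the floor for counting error only, corresponded to 2.15 to 4.89 normalized counts.

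After adding a pseudocount of 1, log2 values were modelled by limma 3.58.1 (R 4.3.3) as 4 group means over all 12 libraries, using eBayes with a trend. Benjamini-Hochberg adjustment ran over the 18579 genes with at least 10 reads in all, and a gene was called at an adjusted p under 0.05. Such fold changes understate changes of low genes. No exact permutation test of 3 against 3 libraries can pass that threshold, so none is given. The members, lists and rules were chosen with earlier results of these data known. All 8 genes were named, as were, from each list, up to 3 called genes per direction with the largest change and a mean of at least 50 normalized counts, the nearest tested neighbours and the 3 most similar profiles. F7, KLKB1, LMAN1, PRSS8, PROZ, HPN, GZMA, MMP13 and TMPRSS2 were named after their values were seen. Levels per kb used the Ensembl canonical transcript of GENCODE v44, in which 17524 symbols had a position. Promoter sequences were RefSeq's.

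Alternatives were pseudocounts of 0.5 and 16, filterByExpr, no filter beyond 1 read, TMM scaling, limma-voom, edgeR 4.0.16 quasi-likelihood with TMM or RLE, DESeq2 1.42.0, a replicate block, only the groups compared, cutoffs of 1 and 1.5 on the log2 scale and each library left out. The code was tested on simulated data.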

Additional observations from a re-analysis of the deposited data

Results flagged for a closer look

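The response of F2RL3 (PAR4) to TGFβ1 differed between the lines, by a test of the difference itself. The log2 fall was -1.50 in WT-GR and -2.16 in S134A-GR cells, and S134A-GR minus WT-GR was -0.66 (SE 0.117, limma adjusted p = 0.0259). All 3 treated libraries were below all 3 untreated ones in each line. The adjusted p passed 0.05 in 8 of 10 other fits and in 3 of 12 fits with a library left out.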

How the results depend on the processing

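The counts of the 8 genes called between the lines and under TGFβ1 in each line moved by over 1.5 times only with a cutoff on size. With at least 1 on the log2 scale they were 2 and 2 between the lines under Veh and under TGFβ1, and 1 and 1 for TGFβ1 in WT-GR and S134A-GR cells. With at least 1.5 they were 0, 1, 0 and 1, where F2RL3 in WT-GR cells missed the cutoff at -1.50. Leaving out 1 library at a time, the counts ranged from 6 to 7, 6 to 7, 4 to 6 and 3 to 4 in the same order. For the difference in response the count of 1 became 0 with either cutoff, with limma-voom, with the replicate block and with 9 of 12 libraries left out, a range of 0 to 1. DESeq2 and edgeR each called F2RL3 alone, and F2RL1 and THBD were called in none of the fits. The number of all genes called for a difference was 77, against 211 with DESeq2, and between 22 (without WT-GR TGFβ1 replicate 1) and 166 (without WT-GR Veh replicate 3) with a library left out. The cause was not tested.

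With a library left out, 6 log2 values near 0, none of them called, changed sign. THBD between the lines under Veh ranged from -0.0080 (without WT-GR Veh replicate 1) to 0.056. The TGFβ1 response in WT-GR cells ranged from -0.00097 to 0.056 for F2R and from -0.031 to 0.13 for F2RL2, both lowest without WT-GR Veh replicate 3. In S134A-GR cells it ranged from -0.10 to 0.040 for F2RL1 (highest without S134A-GR TGFβ1 replicate 3) and from -0.23 to 0.0062 for F2RL2 (highest without S134A-GR Veh replicate 3). The difference for TFPI2 ranged from -0.060 to 0.0062 (highest without WT-GR TGFβ1 replicate 3). For the fold changes of the 8 genes, 448 values with a library left out and 427 under other settings kept direction and side of the threshold, while 25 lost the threshold and 6 gained it.

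Libraries with the same replicate number had a mean correlation of 0.000891 (18 pairs, -0.155 to 0.154) over 12468 genes in their deviations from group means, so the numbers were not taken as a pairing. The replicate block changed no other call of the 8 genes than F2RL3's difference (adjusted p = 0.0528). F2RL2, with 140 reads in its thinnest library, was the least precise of the 8.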
